A study of Mus musculus with 12 samples.

Results

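Glycolysis and the response to low oxygen were followed in airway macrophages (AMs) through 32 genes chosen by name for their roles: the carriers and enzymes that take a cell from glucose to lactate, the enzymes at the entry of pyruvate into the mitochondria, and the oxygen-sensing system built around Hif1a. The rule itself uses no measured value, but the genes were chosen with earlier results of these data known. All 32 were found among the 20551 genes of the count table, and all 32 passed the filter on low counts that left 13729 genes for testing.

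Glycolysis splits glucose into pyruvate and yields ATP without oxygen, and its end product can leave the cell as lactate or be oxidised in the mitochondria after pyruvate dehydrogenase has acted on it. HIF1A, the oxygen-regulated subunit of the transcription factor HIF-1, is marked for destruction by the EGLN prolyl hydroxylases when oxygen is present, and when it is stable it switches on glucose carriers, most glycolytic enzymes, pyruvate dehydrogenase kinases, Bnip3 and Vegfa. Macrophages exposed to bacterial lipopolysaccharide (LPS) are known for raising glucose use and HIF1A, while resident AMs live in air-filled, glucose-poor airspaces and are known for a metabolism that rests largely on lipids and oxidative phosphorylation.

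RNA was sequenced from AMs of Scnn1b-Tg mice, which express Scnn1b, a subunit of the epithelial sodium channel, under a club cell promoter and develop mucus-obstructed airways, and from wild-type (WT) littermates, all on a C57BL/6 background and, per the study's methods for sequencing, female and 6 weeks old. Cells of a pool of 3 to 4 animals were split and kept for 12 h with 100 ng/ml LPS of Pseudomonas aeruginosa or with medium alone. The 4 groups of 3 libraries were WT medium and WT LPS (pools 16, 17 and 18), then Scnn1b-Tg medium and Scnn1b-Tg LPS (pools 17, 18 and 19), and the pools of the genotypes come from different animals although they share numbers. WT 16, WT 17 and Scnn1b-Tg 17 formed library batch 1 and the other pools batch 2. Per the labels, lavage cells were left to adhere and kept in a medium with glucose, glutamine, pyruvate and serum, while the methods for sequencing describe AMs sorted from digested lung by flow cytometry. Every medium library therefore shows cultured cells, not cells in the airspace, and the oxygen level of the cultures is not given in the sources used here.

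Deposited estimated counts summed to 48.2 to 60.9 M per library, and levels are given below as CPM, counts scaled to library size with TMM factors. The 3 libraries of a group follow the order of the pools above, and where 4 means are listed they follow the order of the groups above. Where genes are compared with each other, CPM were divided by exon length in kilobases. All 10 markers of AMs were measured, with summed levels in medium of 13826 to 14556 CPM in WT and 16311 to 19972 CPM in Scnn1b-Tg AMs, and with LPS of 9163 to 11136 CPM and 10730 to 16098 CPM. Most of each sum was Chil3, with means of 9969, 7953, 12601 and 9898 CPM in the 4 groups in turn. Siglecf had mean levels of 115, 11.1, 118 and 6.47 CPM in the same order. Fabp4, Fabp5, Pparg, Mertk and Krt79 were also lower with LPS, and Chil3 and Itgax were lower by smaller steps, while Marco and Car4 were higher. All 4 erythroid markers were at or under 8 counts, the worth of about 3 reads. The 5 monocyte markers summed to at most 2.05 CPM and the 4 B cell markers to at most 1.12 CPM. The 4 dendritic cell markers found summed to 0.754 to 1.29 CPM in the medium and 2.06 to 3.57 CPM in the LPS libraries. That rise was mostly Zbtb46 (WT means 0.451 and 2.35 CPM, Scnn1b-Tg means 0.558 and 2.73 CPM), while Clec9a was lower with LPS. The 4 T or NK markers found summed to 0.522 to 1.11 CPM in WT medium and 0.585 to 0.958 CPM in WT LPS. For Scnn1b-Tg AMs they summed to 0.392 to 0.475 CPM in medium and 1.42 to 1.64 CPM with LPS. This higher sum was mostly Cd247 (means 0.038 and 1.07 CPM). Means were 0.237 and 0.230 CPM for Cd3e, 0.119 and 0.133 CPM for Cd3d and 0.038 and 0.085 CPM for Cd3g. The summed level of the 5 neutrophil markers found, of which S100a9 was at or under 8 counts, was 17.1 to 20.8 CPM in WT medium and 25.6 to 37.7 CPM in Scnn1b-Tg medium, and with LPS 12.0 to 15.3 CPM in WT and 16.5 to 22.0 CPM in Scnn1b-Tg AMs. The 6 epithelial markers summed to 75.7 to 109.5 CPM in WT and 32.05 to 68.0 CPM in Scnn1b-Tg libraries, mostly Scgb1a1 and Sftpc. The part of these differences in the results below was not tested. Scnn1b itself was at or under 0.755 CPM in every library. The 4 genes used as a check of LPS exposure (Tnf, Il1b, Cxcl1 and Nfkbia) summed to 167 to 279.9 CPM in the medium libraries and 2129 to 3601 CPM in the LPS libraries.

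The first comparison, LPS against medium within each genotype, asks how the glycolytic and hypoxia genes answered a bacterial product. In WT AMs 10 of the 32 genes rose and 4 fell (edgeR adjusted p under 0.05), where 15.5% of all genes tested rose and 16.2% fell. In Scnn1b-Tg AMs 17 rose and 5 fell, where 19.3% of all genes tested rose and 18.7% fell. The Scnn1b-Tg falls include that of Gapdh, which is given below as uncertain. The rises included the glucose carrier Slc2a1, the hexokinases Hk2 and Hk3, Pgk1, Eno2, Ldha, the lactate exporter Slc16a3 and Hif1a in both genotypes. The falls included the aldolase Aldoc, the pyruvate dehydrogenase kinases Pdk1 and Pdk3 and the regulator Pfkfb4, again in both. All 14 genes called in WT were also called in Scnn1b-Tg AMs and in the same direction, as were 86.2% of the 4359 genes called in WT overall. A further 8, Gapdh among them, were called in Scnn1b-Tg AMs alone, and 10 in neither. The 32 genes had a median log2 fold change of 0.15 with LPS in WT and one of 0.42 in Scnn1b-Tg AMs, against 0.003 and -0.015 over all genes tested. With libraries scaled to total counts alone the medians were 0.07 and 0.32, against -0.08 and -0.12 over all genes. The LPS and medium libraries did not overlap for 17 of the 32 genes in WT, or for 21 in Scnn1b-Tg AMs, where 38.7% and 43.8% of all genes tested were apart in this way. Each called gene moved in the same direction in both library batches. In bulk RNA, fewer cells of a type and less RNA per cell cannot be told apart, and RNA levels say nothing of glucose use itself.

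**Figure D1:**
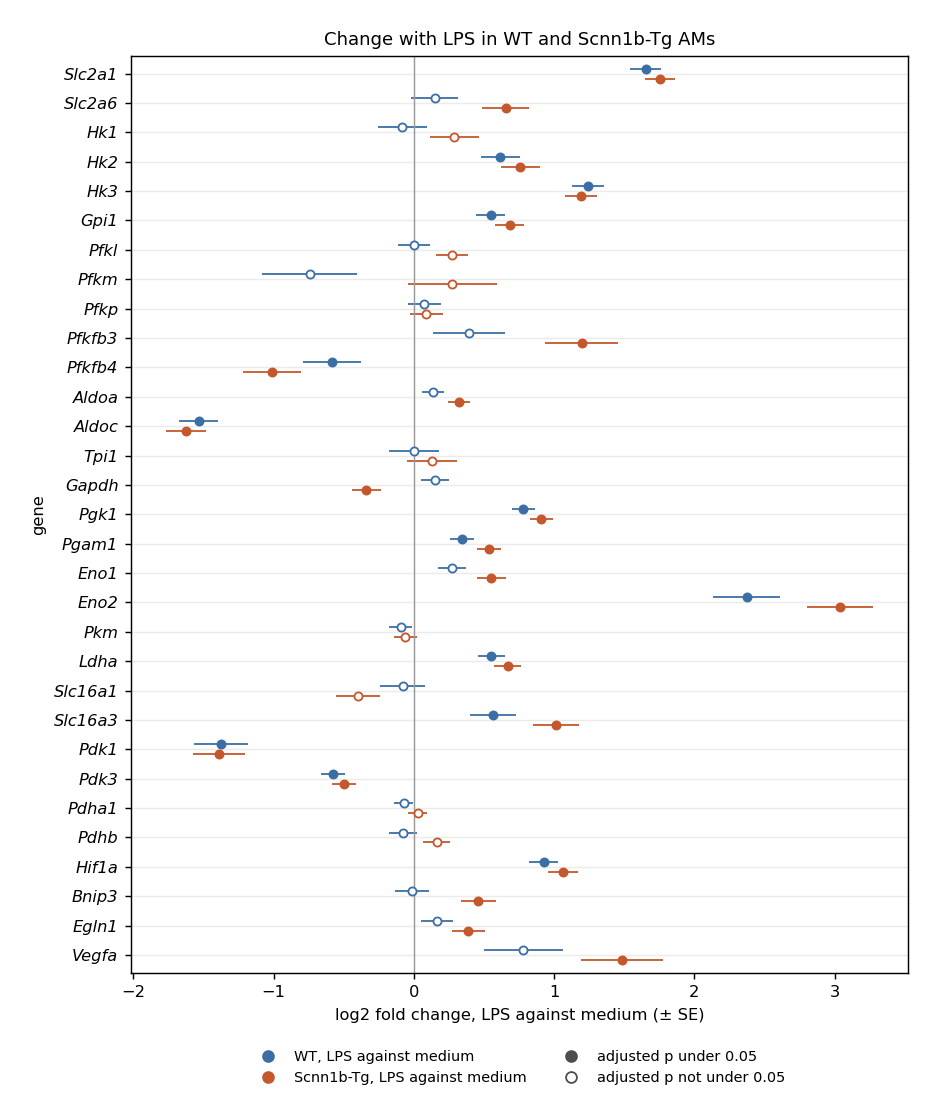
Log2 fold change with LPS (horizontal axis, ± SE) of 31 of the 32 genes, in the order of the pathway from top to bottom, in WT (blue) and Scnn1b-Tg AMs (orange), 3 libraries per group. Filled points passed an edgeR adjusted p of 0.05. Eno2 had the largest rises (2.37 and 3.04) and Aldoc the largest falls (-1.53 and -1.62), and Egln3 is not drawn because it was close to the detection limit.

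Sequence before the gene starts was read to see whether genes that moved together carry the core letters of the hypoxia response element, to which HIF-1 is known to bind. RefSeq promoter windows of 300 bases (250 before to 50 after a start, GRCm38.p6) were searched for ACGTG on either strand, and separately for GCGTG, and all 32 genes had at least 1 window. The palindrome CACGTG, itself the core of another motif, holds ACGTG on both strands. In at least 1 window, 22 of the 32 genes (68.8%) held ACGTG, against 21.8% of 27025 genes with a window and 29.2% of the 9732 tested genes matched by symbol. Counted by window, 25 of 46 (54.3%) held it, against 19.6% of 32851 and 25.3% of the 12371 windows of tested genes. GCGTG was found for 21 of the 32 genes (65.6%), against 35.2% of all genes and 55.6% of the tested genes. By window it was found in 26 of 46 (56.5%), against 32.4% of all windows and 49.9% of those of tested genes. Because the list was chosen by name for glycolysis and the hypoxia response, an excess over all genes was likely from the start. It is no evidence about the LPS changes in these data. ACGTG stood in the windows of 8 of the 10 genes that rose in both genotypes, 2 of the 4 that fell in both, 6 of the 8 called in Scnn1b-Tg AMs alone and 6 of the 10 not called. For GCGTG these counts were 3 of 10, 4 of 4, 7 of 8 and 7 of 10. Eno2, with the largest rise, and Gpi1 held neither set of letters in this window. The following stretches of 60 bases lie before a RefSeq start of 6 genes that rose in both genotypes, outside annotated exons, those of Ldha and Hif1a before an internal start within the gene, and are shown 5′ to 3′ on the gene's strand with ACGTG, or CACGT where it reads on the other strand, in capitals.
Pgk1 chrX:106186931-106186990 plus strand: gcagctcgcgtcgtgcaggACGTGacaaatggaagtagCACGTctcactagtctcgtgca
Ldha chr7:46845733-46845792 plus strand: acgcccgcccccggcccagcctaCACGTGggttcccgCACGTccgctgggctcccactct
Hk2 chr6:82774475-82774534 minus strand: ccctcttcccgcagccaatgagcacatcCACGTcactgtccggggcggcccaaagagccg
Hk3 chr13:55021510-55021569 minus strand: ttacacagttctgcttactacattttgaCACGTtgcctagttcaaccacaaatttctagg
Pgam1 chr19:41911729-41911788 plus strand: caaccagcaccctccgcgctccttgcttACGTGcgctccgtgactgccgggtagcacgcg
Hif1a chr12:73907704-73907763 plus strand: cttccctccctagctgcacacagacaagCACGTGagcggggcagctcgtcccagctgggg
The Pgk1 and Ldha stretches hold more than 1 core within 60 bases, and the Ldha and Hif1a stretches hold the palindrome. A match describes the letters only, and binding was not measured here.

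As a share of all counts, the 32 genes made up 1.05% ± 0.04 in WT medium and 0.97% ± 0.02 in Scnn1b-Tg medium, and with LPS 1.14% ± 0.01 in WT and 1.14% ± 0.04 in Scnn1b-Tg AMs (SD, n = 3 each). Every LPS library held a larger share than every medium library. Per kilobase of exon, the 6 highest of the 32 genes were Aldoa, Pkm, Ldha, Pgam1, Eno1 and Pgk1, with mean levels of 678, 657, 492, 293, 155 and 95.6 CPM per kilobase. The lowest were Eno2, Vegfa, Pfkm and Egln3, each under 1 CPM per kilobase. Eno2, the glycolytic enzyme with the largest change, was thus among the least abundant.

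Slc2a1 (GLUT1, the main carrier of glucose into most cells; ENSMUSG00000028645, chromosome 4, 119108711 to 119137983, plus strand, mm10) was at 72.4, 64.9 and 87.6 CPM in the WT medium libraries and at 233, 221 and 250.2 CPM in the WT LPS libraries. In Scnn1b-Tg AMs it was at 62.03, 72.5 and 80.8 CPM in medium and 249.7, 218 and 254 CPM with LPS. All 6 LPS libraries lay far above all 6 medium libraries, and the levels of the genotypes overlapped in both treatments. Slc2a1 rose 3.14-fold in WT (log2 fold change 1.65, SE 0.11, edgeR adjusted p = 8.91e-07) and 3.38-fold in Scnn1b-Tg AMs (log2 fold change 1.76, SE 0.11, edgeR adjusted p = 3.65e-07). Slc2a6 (GLUT6, a carrier of the same family found mainly on internal membranes) was at 41.7, 39.7 and 38.8 CPM in WT medium and 42.2, 36.3 and 56.6 CPM in WT LPS. Its Scnn1b-Tg values were 47.2, 49.6 and 40.8 CPM in medium and 58.5, 67.7 and 92.9 CPM with LPS. WT libraries of the 2 treatments overlapped (log2 fold change 0.15, SE 0.17, edgeR adjusted p = 0.554), and Scnn1b-Tg libraries did not, with a 1.57-fold rise (log2 fold change 0.65, SE 0.17, edgeR adjusted p = 0.00914). The difference of these changes between the genotypes did not pass the test (difference 0.51 on the log2 scale, SE 0.23, edgeR adjusted p = 0.825).

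Of the 16 glycolytic enzymes between glucose and pyruvate, 6 rose and 1 fell in WT, where 15.5% of all genes tested rose and 16.2% fell. In Scnn1b-Tg AMs 8 rose and 2 fell, where 19.3% of all genes tested rose and 18.7% fell. The Scnn1b-Tg falls include that of Gapdh, which is given below as uncertain. At the first step, Hk3, the hexokinase form typical of myeloid cells (ENSMUSG00000025877, chromosome 13, 55005985 to 55021385, minus strand), was at 103, 112 and 97.6 CPM in WT medium and 247, 292 and 203 CPM in WT LPS. Scnn1b-Tg AMs had 115, 132 and 109 CPM in medium and 313, 256 and 249.8 CPM with LPS. The treatments did not overlap in either genotype, with a 2.37-fold rise in WT (log2 fold change 1.24, SE 0.12, edgeR adjusted p = 1.2e-05) and a 2.28-fold rise in Scnn1b-Tg AMs (log2 fold change 1.19, SE 0.12, edgeR adjusted p = 1.21e-05). Hk2, the hexokinase form that hypoxia and growth signals induce in many cells (ENSMUSG00000000628, chromosome 6, 82725025 to 82774454, minus strand), went from 30.7, 38.7 and 36.1 to 46.9, 66.7 and 48.99 CPM in WT. It went from 39.8, 31.3 and 32.5 to 68.3, 54.02 and 53.3 CPM in Scnn1b-Tg AMs. The libraries of the treatments were apart here too, by a smaller step than for Hk3 (log2 fold change 0.62, SE 0.14, edgeR adjusted p = 0.00616 in WT and log2 fold change 0.76, SE 0.14, edgeR adjusted p = 0.00138 in Scnn1b-Tg). The pools numbered 17, different animals of batch 1, were the highest of the 3 for Hk2 and Hk3 in the LPS libraries of both genotypes. Hk1, the housekeeping form, was at 29.5, 40.3 and 31.6 CPM in WT medium and 26.5, 41.9 and 27.7 CPM in WT LPS. In Scnn1b-Tg AMs its values were 35.5, 34.2 and 33.7 CPM in medium and 51.9, 41.5 and 34.1 CPM with LPS, the treatments overlapped in both genotypes, and neither comparison passed the test (log2 fold change -0.081, SE 0.17, edgeR adjusted p = 0.77 and log2 fold change 0.29, SE 0.17, edgeR adjusted p = 0.223).

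Phosphofructokinase, the committing step, showed no called change in any of its 3 genes. The liver-type Pfkl was at 254, 281 and 296 CPM in WT medium and 272, 245 and 317 CPM in WT LPS, and Scnn1b-Tg AMs had 260.2, 240.4 and 283 CPM in medium and 321, 273 and 351 CPM with LPS. The platelet-type Pfkp was at 130.4, 155 and 131 CPM in WT medium and 134, 185 and 122 CPM in WT LPS, with 140.3, 116 and 126 CPM and 155, 128 and 124 CPM for Scnn1b-Tg. Both overlapped between the treatments, with log2 fold changes of 0.0031 and 0.27 for Pfkl and 0.076 and 0.089 for Pfkp (SE 0.11 to 0.12, edgeR adjusted p = 0.988, 0.0875, 0.679 and 0.596). With the pool as a block, Pfkl passed in Scnn1b-Tg AMs (log2 fold change 0.26, edgeR adjusted p = 0.0183). The muscle-type Pfkm was barely expressed, at 0.537, 1.14 and 1.08 CPM in WT medium and 0.659, 0.3295 and 0.661 CPM in WT LPS. For Scnn1b-Tg AMs it was 0.702, 0.723 and 0.8404 CPM in medium and 0.827, 0.837 and 1.08 CPM with LPS, and neither comparison passed (log2 fold change -0.74, SE 0.34, edgeR adjusted p = 0.125 in WT, and log2 fold change 0.27, SE 0.32, edgeR adjusted p = 0.539 in Scnn1b-Tg). Without the WT medium 16 library the WT value passed (-1.005, edgeR adjusted p = 0.0428).

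Of the 2 regulators of phosphofructokinase, Pfkfb4 fell in both genotypes and Pfkfb3 rose in Scnn1b-Tg AMs. Pfkfb3, a kinase that makes the strongest activator of phosphofructokinase (ENSMUSG00000026773, chromosome 2, 11471433 to 11554077, minus strand), was at 17.2, 24.5 and 19.2 CPM in WT medium and 28.8, 39.7 and 16.5 CPM in WT LPS. In Scnn1b-Tg AMs it was at 17.9, 8.75 and 9.47 CPM in medium and 37.2, 28.7 and 15.6 CPM with LPS. It was higher with LPS in 5 of 6 pools, WT 18 being the exception, but the treatments overlapped in both genotypes. The rise passed in Scnn1b-Tg AMs (2.29-fold, log2 fold change 1.196, SE 0.26, edgeR adjusted p = 0.00397) and not in WT (log2 fold change 0.39, SE 0.26, edgeR adjusted p = 0.287). Pfkfb4, a related enzyme with both kinase and phosphatase activity, fell from 89.8, 89.9 and 113 to 53.7, 58.4 and 84.4 CPM in WT. It fell from 106, 116 and 114 to 61.4, 36.99 and 66.8 CPM in Scnn1b-Tg AMs. All LPS libraries lay below all medium libraries of the same genotype, by 1.499-fold in WT (log2 fold change -0.58, SE 0.20, edgeR adjusted p = 0.0495) and 2.01-fold in Scnn1b-Tg AMs (log2 fold change -1.01, SE 0.21, edgeR adjusted p = 0.00252). The WT call was at the threshold and was lost in 11 of 23 other settings, without each WT library except WT LPS 18, without each Scnn1b-Tg medium library or Scnn1b-Tg LPS 19, with no filter and with no batch term, with edgeR adjusted p of up to 0.164.

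At the aldolase step Aldoc fell in both genotypes, and Aldoa rose in Scnn1b-Tg AMs. Aldoa, the main aldolase, was at 1838, 1898 and 1997 CPM in WT medium and 2062, 2163 and 2089 CPM in WT LPS. Its Scnn1b-Tg levels were 1704, 1706 and 1761 CPM in medium and 2214, 1936 and 2310.4 CPM with LPS. Libraries of the 2 treatments did not overlap in either genotype, and the rise passed in Scnn1b-Tg AMs (1.25-fold, log2 fold change 0.32, SE 0.079, edgeR adjusted p = 0.00782) but not in WT (log2 fold change 0.14, SE 0.079, edgeR adjusted p = 0.215). Aldoc, the aldolase best known from brain (ENSMUSG00000017390, chromosome 11, 78322968 to 78327781, plus strand), fell from 88.8, 93.8 and 93.4 to 33.9, 33.8 and 27.6 CPM in WT. It fell from 113, 99.8 and 137 to 38.3, 32.1 and 43.1 CPM in Scnn1b-Tg AMs. The highest LPS library was below the lowest medium library by a wide margin, and the falls were 2.898-fold (log2 fold change -1.53, SE 0.14, edgeR adjusted p = 1.07e-05) and 3.08-fold (log2 fold change -1.62, SE 0.14, edgeR adjusted p = 4.9e-06). In medium all 3 Scnn1b-Tg libraries were above all 3 WT libraries.

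In the lower part of the pathway, Pgk1, the phosphoglycerate kinase that makes ATP (ENSMUSG00000062070, chromosome X, 106187100 to 106203699, plus strand), had group means of 158 ± 8.77 CPM in WT medium and 271 ± 26.4 CPM in WT LPS (SD, n = 3 each). The Scnn1b-Tg means were 149 ± 1.89 and 279.6 ± 11.2 CPM. It rose by 1.72-fold and 1.88-fold, with log2 changes by pool between 0.64 and 0.95. Gpi1, the isomerase after hexokinase, had means of 296 ± 14.9, 434 ± 59.6, 256 ± 10.9 and 413 ± 57.2 CPM, rises of 1.46-fold and 1.61-fold. Pgam1, the mutase after Pgk1, had means of 531 ± 22.6, 674 ± 34.9, 457 ± 22.4 and 662 ± 69.4 CPM, rises of 1.27-fold and 1.45-fold. These 3 genes rose in both genotypes, with edgeR adjusted p between 6.74e-06 and 0.00998, and in all 6 pools. Tpi1 (triosephosphate isomerase) and Pkm (pyruvate kinase, the last step) were not called, with log2 fold changes of 1.2e-04 and 0.13 for Tpi1 and -0.094 and -0.06 for Pkm (SE 0.08 to 0.18). Tpi1 varied between pools in WT LPS, at 120.5 to 220.2 CPM, and without the WT LPS 16 library its value turned to -0.30 (edgeR adjusted p = 0.0347).

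Enolase held the largest called change of all 32 genes. Eno1, the common form, was at 665, 811 and 812 CPM in WT medium and 887, 915 and 962 CPM in WT LPS. Scnn1b-Tg AMs had 615, 741 and 653 CPM in medium and 1063, 913 and 964 CPM with LPS. The treatments were apart in both genotypes, and the rise passed in Scnn1b-Tg AMs (1.47-fold, log2 fold change 0.55, SE 0.10, edgeR adjusted p = 0.00129) and narrowly missed in WT (log2 fold change 0.27, SE 0.10, edgeR adjusted p = 0.0616), where it passed with the pool as a block (0.28, edgeR adjusted p = 0.0445). Eno2, the form best known as a marker of neurons (ENSMUSG00000004267, chromosome 6, 124760053 to 124769673, minus strand), was at 1.16, 1.04 and 0.884 CPM in WT medium and 4.53, 4.93 and 6.93 CPM in WT LPS. It was at 0.599, 1.52 and 0.915 CPM in Scnn1b-Tg medium and 6.27, 9.85 and 8.59 CPM in Scnn1b-Tg LPS. Every LPS library held more than the highest medium library, a rise of 5.18-fold in WT (log2 fold change 2.37, SE 0.24, edgeR adjusted p = 2.25e-05) and 8.21-fold in Scnn1b-Tg AMs (log2 fold change 3.04, SE 0.23, edgeR adjusted p = 1.98e-06), yet even then Eno2 stayed near 1% of all enolase RNA per kilobase.

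For lactate, Ldha, the lactate dehydrogenase subunit that favours making lactate from pyruvate (ENSMUSG00000063229, chromosome 7, 46841475 to 46855627, plus strand), had means of 1287 ± 47.8, 1885 ± 120.3, 1288 ± 126 and 2049 ± 215 CPM. It rose 1.47-fold in WT (log2 fold change 0.55, SE 0.096, edgeR adjusted p = 0.00112) and 1.59-fold in Scnn1b-Tg AMs (log2 fold change 0.67, SE 0.096, edgeR adjusted p = 0.000223). Slc16a3 (MCT4, the lactate exporter of glycolytic cells; ENSMUSG00000025161, chromosome 11, 120948480 to 120960868, plus strand) was at 66.3, 77.8 and 80.6 CPM in WT medium and 126, 81.2 and 126 CPM in WT LPS. In Scnn1b-Tg AMs it went from 54.4, 72.1 and 77.1 to 144, 122 and 141 CPM. Its Scnn1b-Tg libraries were widely apart (2.02-fold, log2 fold change 1.02, SE 0.16, edgeR adjusted p = 0.000542), whereas in WT the LPS library of pool 17 was within 1 CPM of the highest medium library (1.48-fold, log2 fold change 0.56, SE 0.16, edgeR adjusted p = 0.0219). The WT call was lost in 5 of 23 other settings, without WT medium 16 or 18 or WT LPS 16 or 18 or with only the WT libraries fitted, with edgeR adjusted p of up to 0.0854. Slc16a1 (MCT1, a lactate and pyruvate carrier of most cells) was at 31.7, 31.8 and 36.4 CPM in WT medium and 35.7, 31.4 and 28.3 CPM in WT LPS. Its Scnn1b-Tg values were 52.2, 33.01 and 45.03 CPM in medium and 40.9, 26.8 and 31.5 CPM with LPS. The treatments overlapped in both genotypes and neither comparison passed (log2 fold change -0.079, SE 0.16, edgeR adjusted p = 0.753 in WT and log2 fold change -0.40, SE 0.16, edgeR adjusted p = 0.0718 in Scnn1b-Tg), although with the pool as a block the Scnn1b-Tg value did (-0.39, edgeR adjusted p = 0.0156).

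At the entry of pyruvate into the mitochondria, both kinases that shut down pyruvate dehydrogenase fell and the enzyme itself was not called. Pdk1 (ENSMUSG00000006494, chromosome 2, 71873224 to 71903858, plus strand), a textbook target of HIF-1, went from 15.9, 14.5 and 18.02 to 6.65, 3.798 and 8.72 CPM in WT. It went from 20.1, 25.2 and 28.4 to 7.54, 8.84 and 11.9 CPM in Scnn1b-Tg AMs. All LPS libraries lay below all medium libraries of both genotypes, by 2.59-fold (log2 fold change -1.37, SE 0.19, edgeR adjusted p = 0.000269) and 2.62-fold (log2 fold change -1.39, SE 0.19, edgeR adjusted p = 0.000149). Pdk3 was at 27.6, 27.6 and 29.3 CPM in WT medium and 19.4, 18.2 and 19.1 CPM in WT LPS. Scnn1b-Tg AMs had 28.6, 28.7 and 28.4 CPM in medium and 20.7, 21.5 and 18.4 CPM with LPS, again with no overlap. Its falls of 1.49-fold and 1.41-fold were smaller and more regular between pools (log2 fold change -0.58, SE 0.085, edgeR adjusted p = 0.000384 and log2 fold change -0.50, SE 0.085, edgeR adjusted p = 0.000773). Pdha1 and Pdhb, the subunits of the first component of pyruvate dehydrogenase, were not called in either genotype. Pdha1 was at 92.4, 94.5 and 84.8 CPM in WT medium and 88.7, 92.9 and 76.99 CPM in WT LPS, with 84.3, 71.95 and 81.4 CPM and 86.6, 79.3 and 76.3 CPM for Scnn1b-Tg. Pdhb was at 96.9, 83.7 and 95.7 CPM in WT medium and 95.7, 74.3 and 92.2 CPM in WT LPS, with 76.7, 91.2 and 86.2 CPM and 86.04, 102 and 96.3 CPM for Scnn1b-Tg. The treatments overlapped for both genes, and the log2 fold changes lay between -0.077 and 0.16 (SE 0.07 to 0.10, edgeR adjusted p of 0.231 to 0.806).

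In the oxygen-sensing system, Hif1a (ENSMUSG00000021109, chromosome 12, 73901375 to 73947530, plus strand) was at 156, 192 and 117 CPM in WT medium and 282, 374 and 226 CPM in WT LPS. In Scnn1b-Tg AMs it was at 167, 117 and 120.03 CPM in medium and 364, 242 and 244 CPM with LPS. The treatments were apart in both genotypes, and within a treatment the pools ranged widely. In each treatment every batch 1 library (WT 16, WT 17 and Scnn1b-Tg 17) was above every batch 2 library. The pools numbered 17, different animals of the same batch, were the highest in each of the 4 groups. Whether batch or pool lies behind this spread was not tested. The change within a pool was more regular than the levels, between 0.85 and 1.12 on the log2 scale in all 6 pools, and Hif1a rose 1.899-fold in WT (log2 fold change 0.93, SE 0.11, edgeR adjusted p = 5.79e-05) and 2.09-fold in Scnn1b-Tg AMs (log2 fold change 1.06, SE 0.11, edgeR adjusted p = 1.48e-05). Egln1, the main prolyl hydroxylase that marks HIF1A, was at 36.99, 45.9 and 39.03 CPM in WT medium and 44.3, 47.5 and 44.6 CPM in WT LPS. Its levels were 35.6, 32.002 and 33.3 CPM in medium and 50.2, 35.8 and 46.5 CPM with LPS for Scnn1b-Tg AMs. The WT libraries overlapped (log2 fold change 0.16, SE 0.12, edgeR adjusted p = 0.324), the Scnn1b-Tg libraries were just apart, and the Scnn1b-Tg rise of 1.31-fold (log2 fold change 0.39, SE 0.12, edgeR adjusted p = 0.0208) was lost in 5 of 23 other settings, without Scnn1b-Tg medium 17 or 18 or Scnn1b-Tg LPS 17 or 19 or with no scaling factors. Egln3, the hydroxylase gene that hypoxia itself induces most in many cells, was near the detection limit, with 0, 0 and 3 counts in WT medium and 15, 0 and 5 counts in WT LPS, beside 0, 15 and 6 counts in medium and 7, 0 and 28 counts with LPS for Scnn1b-Tg AMs. No fold change is given for it.

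The other hypoxia targets among the 32 were low. Vegfa, the endothelial growth factor (ENSMUSG00000023951, chromosome 17, 46016993 to 46032369, minus strand), had means of 0.7804 ± 0.138 CPM in WT medium and 1.36 ± 0.307 CPM in WT LPS. The Scnn1b-Tg means were 0.532 ± 0.251 and 1.496 ± 0.491 CPM, and it was higher with LPS in all 6 pools. The rise passed in Scnn1b-Tg AMs (2.799-fold, log2 fold change 1.48, SE 0.29, edgeR adjusted p = 0.00212) and missed in WT (log2 fold change 0.78, SE 0.28, edgeR adjusted p = 0.056), where it passed with the pool as a block (0.79, edgeR adjusted p = 0.0238). Bnip3, a receptor for the removal of mitochondria, had means of 20.2 ± 1.59, 20.1 ± 2.73, 18.2 ± 1.86 and 25.01 ± 1.39 CPM. It rose in Scnn1b-Tg AMs (1.38-fold, log2 fold change 0.46, SE 0.12, edgeR adjusted p = 0.0121, with an adjusted p of 0.0558 without Scnn1b-Tg medium 19) and was not called in WT (log2 fold change -0.014, SE 0.12, edgeR adjusted p = 0.949).

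**Figure D2:**
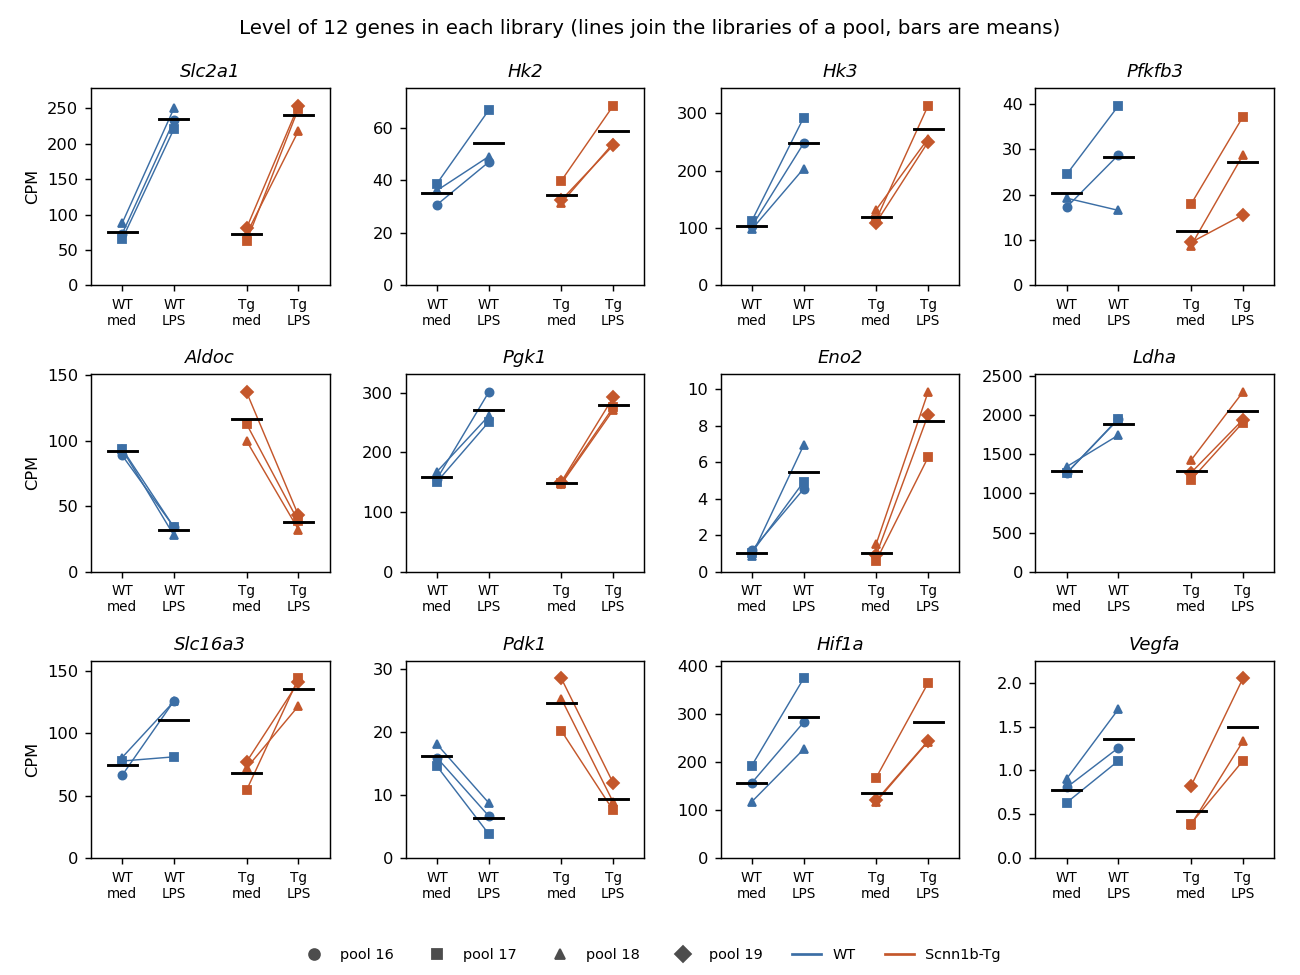
Levels of 12 of the genes in CPM (vertical axes from 0) in the 12 libraries, by group along the horizontal axis (medium and LPS of WT, then of Scnn1b-Tg). Lines join the medium and LPS libraries of a pool, symbols mark pools and black bars are group means. Slc2a1 went from 62.0 to 87.6 CPM in medium to 218 to 254 CPM with LPS, Aldoc and Pdk1 fell in every pool, and Pfkfb3 ran against the others in WT pool 18.

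Gapdh, the dehydrogenase often used as a reference, could not be read from its own row. It was listed at 58.4 ± 3.73, 64.8 ± 6.74, 63.9 ± 1.89 and 50.6 ± 5.38 CPM in the 4 groups in turn (SD, n = 3 each), which put a gene of the central pathway at 14.4 CPM per kilobase, far below Aldoa. The table held 65 other genes with near-identical sequence, 63 of them annotated as pseudogenes, and together they carried 634 to 804 CPM per library, so that Gapdh's own row held 6.09 to 9.02% of the summed reads. On its own row Gapdh fell in Scnn1b-Tg AMs (1.26-fold, log2 fold change -0.34, SE 0.10, edgeR adjusted p = 0.0219) and was not called in WT (log2 fold change 0.15, SE 0.10, edgeR adjusted p = 0.297). With the counts of 63 pseudogene copies added, the 4 means were 774, 797, 732 and 755 CPM, and the Scnn1b-Tg log2 fold change was 0.05 (edgeR adjusted p = 0.743). Without the copies, the Scnn1b-Tg call was also lost in 4 settings, without Scnn1b-Tg medium 17 or 18 or Scnn1b-Tg LPS 18 or 19, and Gapdh is therefore given as uncertain. Other members shared sequence to a smaller degree: copies held 88.2 to 149 CPM beside Pgam1 and 61.1 to 104 CPM beside Eno1, and the calls of these genes stood with the copies added. Counting ignored strand, and exons of Pfkp and Pitrm1 on opposite strands share 748 bases, of Pdha1 and Map3k15 603 bases and of Gpi1 and Gm26762 741 bases, so the split of reads between them is uncertain. Exons of Bnip3 share 504 bases (22.3%) with Gm45507 on the opposite strand. Those of Pkm share 767 bases (15.3%) with Gm49759 on the same strand. Neither Gm45507 nor Gm49759 was in the count table, and the part of these overlaps in the values was not tested.

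Members that share a reaction were then compared as shares of their family's summed level per kilobase, medium against LPS within each of the 6 pools, in 10 families. The mean share shifted in the same direction in all 6 pools in 7 families, for each of which a two-sided exact paired permutation test gave p = 0.0312, the smallest that 6 pairs allow, and p = 0.0446 adjusted over the 10 families. Among the lactate carriers Slc16a3 gained 14.8 points (SD 9.01), from 46.5 to 67.1% in medium to 68.3 to 79.1% with LPS. Pfkfb3 gained 14.4 points (SD 9.31) on Pfkfb4, from 4.65 to 14.9% to 11.2 to 33.4%, with ranges that overlap. Eno2 gained 0.655 points (SD 0.232) on Eno1, from 0.111 to 0.234% to 0.581 to 1.22%. The share of Slc2a6 fell by 18.2 points (SD 7.24) against Slc2a1, from 32.6 to 45.4% to 15.2 to 28.6% as Slc2a1 rose more than Slc2a6 did. The share of Pdk1 fell by 7.31 points (SD 2.32) against Pdk3, from 14.8 to 24.8% to 6.44 to 17.5%. The share of Aldoc fell by 3.46 points (SD 0.855) against Aldoa, from 4.005 to 6.49% to 1.16 to 1.64%. The share of Hk2 fell by 3.44 points (SD 1.45) among the hexokinases, from 11.6 to 16.7% to 10.1 to 12.3% as Hk3 rose more than Hk2 did. The shares of Pfkp among the phosphofructokinases (-0.32 points, SD 3.19, exact p = 0.844) and of Pdha1 in its pair (-1.09 points, SD 2.28, exact p = 0.312) were lower with LPS in 5 of 6 pools each and did not pass, and that of Egln3 (0.198 points, SD 0.806, exact p = 0.562) rests on few counts.

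**Figure D3:**
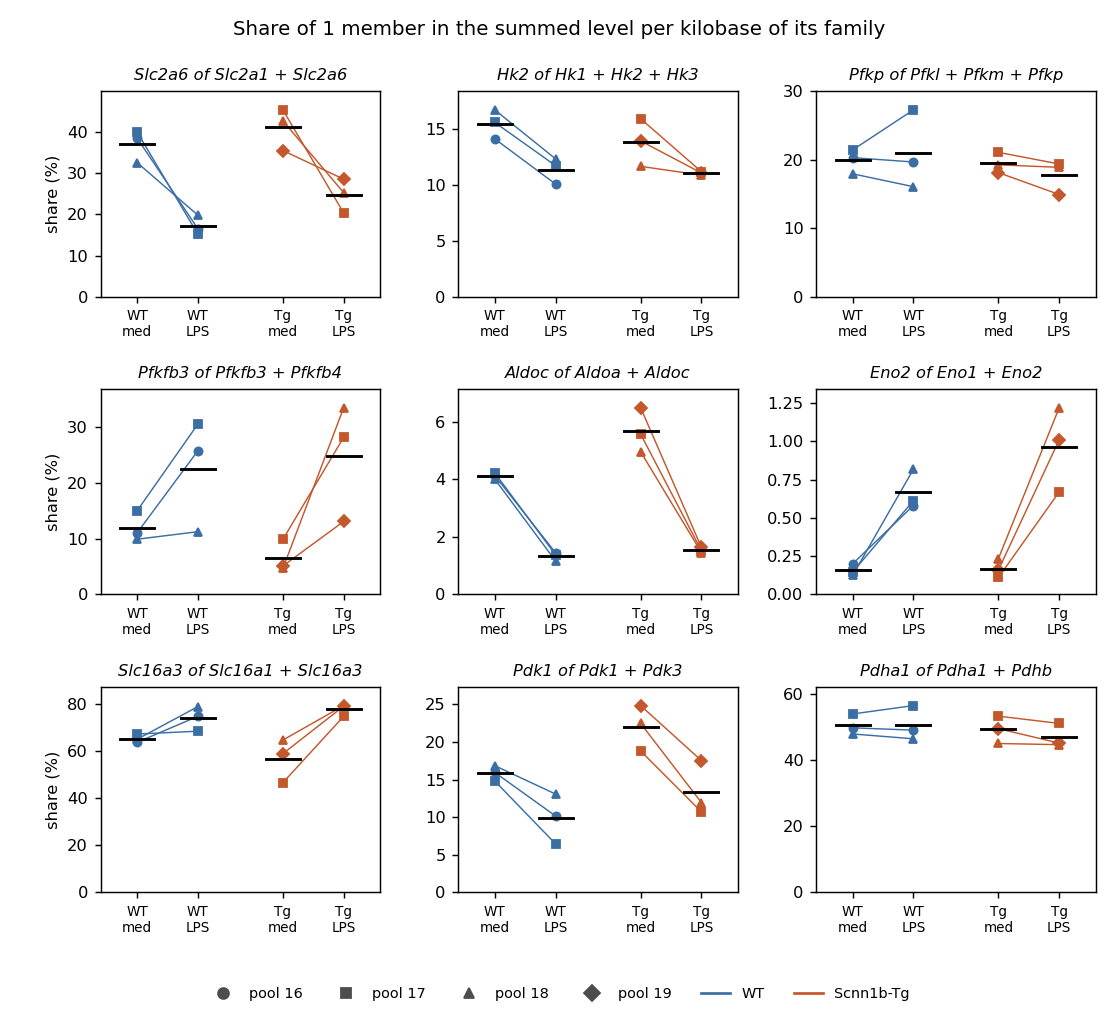
Share in percent (vertical axes from 0) of 1 gene in the summed CPM per kilobase of its family, for 9 families, in the 12 libraries by group along the horizontal axis. Lines join the libraries of a pool and black bars are group means. The share of Slc2a6 fell and that of Slc16a3 rose in each of the 6 pools, and the Aldoc share fell from 4.00 to 6.49% in medium to 1.16 to 1.64% with LPS.

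Between the genotypes, 3 pools against 3, the exact permutation test cannot go below p = 0.1. Each of the 10 families was tested in medium, in LPS and for the change, without adjustment and without a batch term. The floor was reached in medium by the shares of Pfkfb3, Aldoc and Pdk1 and in LPS by those of Aldoc and Slc2a6. For the change with LPS, those of Aldoc and Slc16a3 reached it. Batch is unevenly split between the genotypes, so these tests cannot separate genotype from batch. In Scnn1b-Tg medium the Pfkfb3 share was 9.84% in pool 17 (batch 1) and 4.65 and 5.09% in the batch 2 pools. In medium the share of Pfkfb3 was 11.9% ± 2.66 in WT and 6.53% ± 2.88 in Scnn1b-Tg AMs (SD, n = 3 each). That of Aldoc was 4.12% ± 0.109 in WT and 5.67% ± 0.770 in Scnn1b-Tg AMs, and that of Pdk1 15.9% ± 1.02 and 22.0% ± 3.04. With LPS the share of Slc2a6 was 17.2% ± 2.38 in WT and 24.7% ± 4.13 in Scnn1b-Tg AMs.

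Scnn1b-Tg and WT AMs were compared in medium to ask whether cells from mucus-obstructed airways differ at rest. None of the 32 genes passed (edgeR, lowest adjusted p = 0.268), where 0.335% of all genes tested did, and DESeq2 also called none of them, where it called 3.65% of all genes tested. The 46 genes that edgeR called in all became 3 without Scnn1b-Tg medium 17, 5 without Scnn1b-Tg medium 19, 8 without WT medium 18 and 10 without WT medium 16. The highest count without a single library was 49, without WT LPS 16. The 5 genes with an unadjusted p under 0.05 were Slc16a1, Pdk1 and Aldoc, higher in Scnn1b-Tg AMs, and Pfkfb3 and Pgam1, lower there. Among all genes 1839 of 13729 had such a p. Slc16a1 differed by a log2 fold change of 0.44 (SE 0.16, 2 SE interval 0.12 to 0.76), Pdk1 by 0.44 (SE 0.19, interval 0.064 to 0.82) and Aldoc by 0.36 (SE 0.14, interval 0.075 to 0.64). Pfkfb3 differed by -0.60 (SE 0.27, interval -1.14 to -0.074) and Pgam1 by -0.20 (SE 0.088, interval -0.37 to -0.023). For Slc2a1 the interval was -0.34 to 0.098 and for Hif1a -0.23 to 0.20, which leaves room for differences of either sign. Libraries of the genotypes did not overlap for 8 of the 32 genes (Gpi1, Aldoa, Aldoc, Pgam1, Pkm, Pdk1, Pdha1 and Egln1), where 18.4% of all genes tested were apart. The median difference was -0.10, against 0.006 over all genes.

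After LPS, again none of the 32 genes passed between the genotypes (edgeR, lowest adjusted p = 0.304), where 0.051% of all genes tested did. DESeq2 called none of them either, and 1.06% of all genes tested. Slc2a6 (0.63, SE 0.17), Hk1 (0.48, SE 0.18) and Bnip3 (0.33, SE 0.13) had an unadjusted p under 0.05 with higher values in Scnn1b-Tg AMs, and Gapdh (-0.35, SE 0.10) with lower values. In all, 978 of 13729 genes had such a p. The libraries were apart for 4 of the 32 genes (Slc2a6, Pfkm, Gapdh and Bnip3), where 9.11% of all genes tested were. For Slc2a1 the difference was -0.017 with an interval of -0.23 to 0.20, and for Hif1a 0.12 with an interval of -0.094 to 0.34.

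The changes with LPS were also compared between the genotypes. The fitted change was larger in Scnn1b-Tg than in WT AMs for 12 of the 14 genes called in both, and for 69.8% of the 3759 genes called in both and in the same direction. None of the 32 differences passed the test of the difference itself (edgeR, lowest adjusted p = 0.573), and 0% of all genes tested did. DESeq2 called none of the 32 and 0.561% of all genes tested. Gapdh and Bnip3 were the 2 of the 32 genes with an unadjusted p under 0.05, as 817 of 13729 genes had. The 8 genes called in Scnn1b-Tg AMs alone (Slc2a6, Pfkfb3, Aldoa, Gapdh, Eno1, Bnip3, Egln1 and Vegfa) are therefore not shown to differ in their response. The difference was 0.80 for Pfkfb3 (SE 0.37), 0.70 for Vegfa (SE 0.41) and 0.66 for Eno2 (SE 0.35). It was 0.10 for Slc2a1 (SE 0.15) and 0.14 for Hif1a (SE 0.15), with 2 SE intervals of -0.20 to 0.40 and -0.16 to 0.44.

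**Figure D4:**
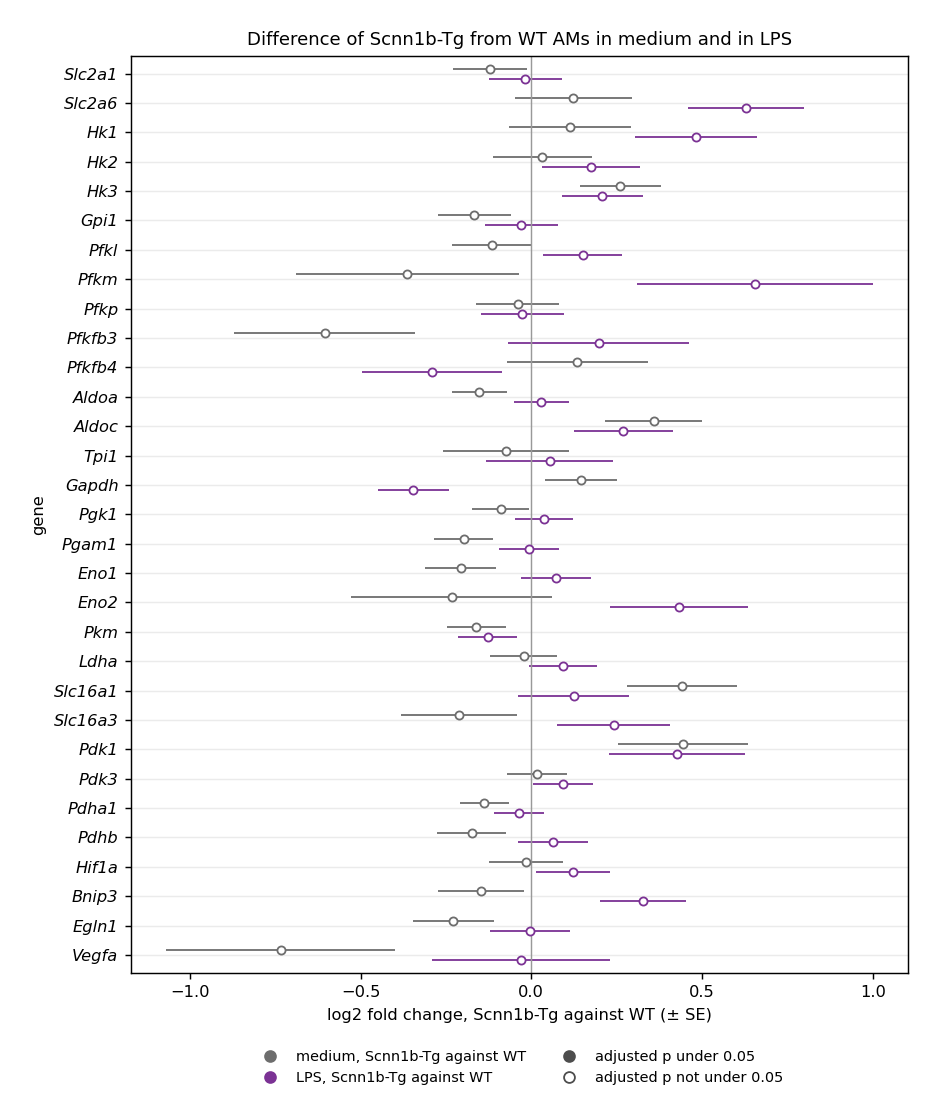
Log2 fold change of Scnn1b-Tg against WT AMs (horizontal axis, ± SE) for 31 of the 32 genes in medium (grey) and in LPS (purple), 3 libraries per group. All points are open because none passed an edgeR adjusted p of 0.05. Vegfa (-0.73) and Pfkfb3 (-0.60) were the lowest in medium, and Egln3 is not drawn.

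Other genes of the same pathways were followed as lists that hold none of the 32. The counts of every list below are to be read beside the shares over all genes tested. In WT 15.5% of all genes tested rose with LPS and 16.2% fell, and in Scnn1b-Tg AMs 19.3% rose and 18.7% fell. Whether a list departs from these shares was not tested. Of 17 further glycolysis genes tested, 2 rose and 6 fell in WT, and 3 rose and 7 fell in Scnn1b-Tg AMs, with median log2 fold changes of -0.20 and -0.46. By size these were led by Slc16a7 (MCT2, a monocarboxylate carrier), at 9.07 ± 0.495 CPM in WT medium and 2.89 ± 1.25 CPM in WT LPS, a log2 fold change of -1.67, beside -1.93 in Scnn1b-Tg AMs. Ldhd and Ldhb, lactate dehydrogenase genes, were called lower in 1 genotype each, Ldhd in WT and Ldhb in Scnn1b-Tg AMs, with at most 1.09 CPM as the mean of any group. They were at or under 8 counts in the LPS libraries of that genotype, so no fold is given.

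Of the 10 genes tested around pyruvate entry, 2 rose and 3 fell in WT, and 4 rose and 3 fell in Scnn1b-Tg AMs. Pcx, which makes oxaloacetate from pyruvate, rose, with means of 30.7 ± 2.47 CPM in WT medium and 163 ± 24.6 CPM in WT LPS (log2 fold change 2.41, SE 0.22), and 22.1 ± 1.51 CPM and 185 ± 59.95 CPM for Scnn1b-Tg (3.06, SE 0.23). Pdk4, a further pyruvate dehydrogenase kinase, fell, with means of 2.34 ± 1.21 CPM in WT medium and 0.711 ± 0.171 CPM in WT LPS (log2 fold change -1.66, SE 0.33), and 7.601 ± 2.37 CPM and 0.828 ± 0.337 CPM for Scnn1b-Tg (-3.18, SE 0.29), as Pdk1 and Pdk3 did. Mpc2, a subunit of the mitochondrial pyruvate carrier, fell too (WT means of 71.9 ± 5.496 CPM in medium and 36.1 ± 8.17 CPM with LPS, and -0.90 in Scnn1b-Tg AMs). Pdk4 was the 1 gene of this list called between the genotypes, higher in Scnn1b-Tg medium (1.52, SE 0.26, edgeR adjusted p = 0.045), a call lost in 16 of 23 other settings with adjusted p of up to 0.267, among them the pool block (0.0593).

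In the pentose phosphate pathway, which branches off after hexokinase and supplies NADPH, 1 of 8 genes rose and 1 fell in WT, and 2 rose and 1 fell in Scnn1b-Tg AMs. H6pd, the dehydrogenase of the endoplasmic reticulum, rose (0.59 and 0.78), and G6pdx, the cytosolic entry enzyme, fell (-0.49 and -0.49). Pgd, the next dehydrogenase, rose in Scnn1b-Tg AMs (0.44, SE 0.099) and had 0.28 in WT (SE 0.099, edgeR adjusted p = 0.0522).

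Of 7 further oxygen-sensing genes, 0 rose and 3 fell in each genotype. Epas1, which encodes the related subunit HIF2A, fell, with means of 46.2 ± 9.903 CPM in WT medium and 7.33 ± 1.73 CPM in WT LPS (log2 fold change -2.65, SE 0.19, edgeR adjusted p = 1.47e-06), and 95.98 ± 6.11 CPM and 12.2 ± 1.06 CPM for Scnn1b-Tg (-2.97, SE 0.19, edgeR adjusted p = 3.87e-07), opposite to Hif1a. In medium Epas1 was higher in Scnn1b-Tg than in WT AMs (1.02, SE 0.18, edgeR adjusted p = 0.0449), a call lost in 12 of 23 other settings with adjusted p of up to 0.267. Cited2, a HIF-1 target that limits its activity, fell (-0.47 and -0.64), and so did its relative Cited4, from a mean of 2.35 CPM or less.

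Of 23 further hypoxia targets, 6 rose and 6 fell in WT, and 8 rose and 6 fell in Scnn1b-Tg AMs, with median log2 fold changes of 0.28 and 0.20. Ndrg1, a stress gene that hypoxia induces, rose, with means of 0.8496 ± 0.212 CPM in WT medium and 7.12 ± 1.41 CPM in WT LPS (log2 fold change 3.06, SE 0.26), and 0.974 ± 0.219 CPM and 5.51 ± 1.67 CPM for Scnn1b-Tg (2.49, SE 0.26). Ak4, a mitochondrial adenylate kinase, rose too, with means of 0.379 ± 0.206, 6.94 ± 1.78, 0.7698 ± 0.389 and 5.902 ± 3.86 CPM in the 4 groups in turn. Adm, which encodes adrenomedullin, was called higher in Scnn1b-Tg AMs, where it was at or under 8 counts in medium and at 0.764 ± 0.459 CPM with LPS, so no fold is given. Hmox1, the heme oxygenase, was the 1 gene of this list called between the genotypes, lower in Scnn1b-Tg medium (-0.74, SE 0.12, edgeR adjusted p = 0.042), and is named because of that call, which was lost in 11 of 23 other settings with adjusted p of up to 0.263.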

How the data were processed

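RNA of AMs from 6 pools of mice, each split into a medium and an LPS library, was sequenced after amplification of full-length cDNA with a SMART-Seq kit. The authors deposited 1 table of estimated counts per gene, made per the labels and the study's methods with HISAT2 on mm10 without use of strand and StringTie on a GENCODE annotation, which turns coverage into whole-number counts. Values came in steps of about 2.5 counts per read, so 8 counts, or 0.131 to 0.166 CPM, was used as the worth of 3 reads. Totals of 48.2 to 60.9 M counts per library set the precision. Gene symbols, positions and exon lengths came from GENCODE M21, where 20158 of the 20551 identifiers were found.

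Counts were scaled with TMM factors and tested with edgeR 4.0.16 (quasi-likelihood F-test, R 4.3.3, two-sided) after filterByExpr with a minimum of 10 counts and a minimum total of 15. The model held the 4 groups and the library batch over all 12 libraries. Benjamini-Hochberg adjustment ran over all 13729 genes, with a threshold of 0.05. SE is the log2 fold change divided by the root of F. The script was tested on simulated data. Shares within families were tested on pool differences in Python 3.11.15 with scipy 1.17.1. DESeq2 1.42.0, limma 3.58.1, other filters, other scalings, counts divided by 5, leaving out each library and blocks by pool were tried as alternatives, and summing near-identical pseudogene copies (at least 95% identity over at least 500 bases, minimap2 2.31) was added after the data were seen. The 2 libraries of a pool come from the same animals per the labels, and their deviations from the group means correlated in every pool (r = 0.212 to 0.497).

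The 32 genes and all lists were chosen with earlier results of these data known. Genes were described library by library where called in both genotypes with a log2 fold change past 1 in either, called between the genotypes, or part of an isozyme family. Other members were given by counts, ranges and group means, and up to 3 called genes per further list, those with the largest mean change, were named. Hmox1 and Pdk2 were named in addition, for the reasons given with them.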

Additional observations from a re-analysis of the deposited data

Results flagged for a closer look

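For 2 of the 32 genes every WT pool moved one way with LPS and every Scnn1b-Tg pool the opposite way, a pattern that was not itself tested and that 158 of the 13729 genes tested (1.15%) showed. For Gapdh the mean change in Scnn1b-Tg less that in WT pools was -0.48 on the log2 scale, and the edgeR test of the difference of responses gave an adjusted p of 0.573. Its own row holds a small part of the reads of its near-identical copies. With 63 pseudogene copies added, the group means were 774 CPM in medium and 797 CPM with LPS for WT, and 732 and 755 CPM for Scnn1b-Tg. For Pdhb the same difference was 0.24, with an edgeR adjusted p of 0.904.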

How the results depend on the processing

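Over the 23 other settings, 22 for the difference of responses, the count of genes called with LPS stayed within 1.5 times the main count of 14 (WT) and 22 (Scnn1b-Tg), and none of them gave a call of one of the 32 genes between the genotypes or between the responses. Leaving out 1 library at a time gave 12 to 15 called genes in WT, 20 to 23 in Scnn1b-Tg AMs and 0 in the other 3 comparisons. DESeq2 gave 15 and 22 genes. Over all genes, leaving out 1 library gave 3 to 49 calls between the genotypes in medium, 2 to 10 with LPS and 0 to 1 for the difference of responses, against 46, 7 and 0. Leaving out 1 pool at a time gave share changes, in percentage points, of -3.97 to -3.18 for Hk2, -1.55 to 0.255 for Pfkp, 11.5 to 17.02 for Pfkfb3, -3.62 to -3.18 for Aldoc, 0.589 to 0.710 for Eno2, -20.4 to -16.8 for Slc2a6, 12.1 to 17.5 for Slc16a3, -8.02 to -6.67 for Pdk1, -1.82 to -0.43 for Pdha1 and 0.024 to 0.476 for Egln3. Of the values of genes called in at least 1 setting, 940 stayed on their side of the threshold (9 of them, all of Tpi1, changed sign without a call), 26 lost and 20 gained the call. Another 2 reversed, Tpi1 in WT without WT LPS 16 (-0.30, edgeR adjusted p = 0.0347, with -0.30 to 0.178 over the libraries left out) and Gapdh in Scnn1b-Tg AMs with pseudogene copies summed (log2 fold change 0.045, edgeR adjusted p = 0.743), where the construction pools reads of the copies. Calls were lost for Pfkfb4 and Slc16a3 in WT and Gapdh, Egln1 and Bnip3 in Scnn1b-Tg AMs, and gained for Eno1, Vegfa and Pfkm in WT and Pfkl, Slc16a1 and Pdhb in Scnn1b-Tg AMs. The cause was not tested. Libraries scaled to total counts alone moved the median of all genes to -0.08 (WT) and -0.12 (Scnn1b-Tg) and gave 14 and 22 called genes, without Egln1 and with Slc16a1 in Scnn1b-Tg AMs (16 higher and 6 lower).

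With the pool as a replicate block, 16 genes were called in WT and 24 in Scnn1b-Tg AMs (Eno1 and Vegfa added in WT, Pfkl and Slc16a1 in Scnn1b-Tg AMs), and the block changed no other call. Groups of 3 pools limit the comparisons between genotypes, where batch is unevenly split. Levels of 1 CPM or less rest on few reads.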
